A study of Rattus norvegicus with 5 samples.

Results

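The astrocyte and radial glia genes described here are Slc1a2, Slc1a3, Aqp4, Glul, S100b, Gja1, Fabp7, Aldoc and Vim, named as markers, with earlier results of these data known. All 9 are on the array, out of 4736 genes with at least 1 probe set that carries a single gene symbol, and 20 probe sets measure them. The study compared total RNA of hippocampus from rats labelled P5 on 5 arrays of 1 colour. Fetal alcohol exposed rats gave 2 arrays, rats on an isocaloric diet, the usual control for feeding in alcohol studies, gave 1, and rats on a control diet gave 2. The sources used here give no strain, sex, alcohol dose or timing, and do not say whether an array held 1 animal or a pool, so p-values measure only the spread between these samples, which may be technical. The single isocaloric array has no replicate check.

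Astrocytes take up glutamate from synapses through transporters, turn it into glutamine, buffer water and ions, and are coupled to each other by gap junctions. Radial glia are the elongated progenitors of the developing brain, and many of them become astrocytes after birth. The transporters Slc1a2 (GLT-1) and Slc1a3 (GLAST) do the uptake, and Glul, glutamine synthetase, makes the glutamine. Aqp4 is the water channel of astrocyte endfeet and Gja1 is connexin 43, the main gap junction protein of astrocytes. S100b binds calcium and Aldoc is the brain form of the glycolytic enzyme aldolase. Fabp7, a fatty acid binding protein, and Vim, an intermediate filament protein, mark radial glia and immature astrocytes, and Vim is also made by fibroblasts and endothelial cells. The most used astrocyte marker, Gfap, was not analysed here.

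Glul had both fetal alcohol arrays lowest at every probe set, an order that 8.54% of all tested genes had at their brightest probe set. Fabp7 had a wide gap between arrays of a group, and the arrays of Aldoc and Vim had a like order. Promoter windows are shown for these 4 genes, picked by their values although none passed a test. Each is the RefSeq window of build GRCr8 from 250 bases before to 50 after a transcription start, read 5′ to 3′ on the strand of the gene. Capitals mark the CCAAT box, the GC box (letters GGGCGG) and the TATA box (letters TATAAA), each searched on both strands; a match on the opposite strand appears as its reverse complement. No marked matches overlap in these windows. RefSeq lists 2 starts for Glul, and the window of the downstream start is shown.
Glul, chr13:68575816-68576115, plus strand: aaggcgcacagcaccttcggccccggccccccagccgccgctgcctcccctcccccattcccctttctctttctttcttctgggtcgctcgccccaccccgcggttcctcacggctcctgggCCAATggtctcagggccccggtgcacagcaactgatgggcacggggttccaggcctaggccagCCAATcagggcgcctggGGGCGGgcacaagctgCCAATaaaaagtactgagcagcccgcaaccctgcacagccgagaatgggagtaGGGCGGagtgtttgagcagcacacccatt
Fabp7, chr20:37669356-37669655, plus strand: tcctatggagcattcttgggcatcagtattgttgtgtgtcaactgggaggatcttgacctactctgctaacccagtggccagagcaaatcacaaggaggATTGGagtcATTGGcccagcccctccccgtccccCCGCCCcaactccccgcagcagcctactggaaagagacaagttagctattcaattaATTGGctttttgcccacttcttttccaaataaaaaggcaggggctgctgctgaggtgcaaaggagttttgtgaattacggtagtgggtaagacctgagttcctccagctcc
Aldoc, chr10:63715294-63715593, plus strand: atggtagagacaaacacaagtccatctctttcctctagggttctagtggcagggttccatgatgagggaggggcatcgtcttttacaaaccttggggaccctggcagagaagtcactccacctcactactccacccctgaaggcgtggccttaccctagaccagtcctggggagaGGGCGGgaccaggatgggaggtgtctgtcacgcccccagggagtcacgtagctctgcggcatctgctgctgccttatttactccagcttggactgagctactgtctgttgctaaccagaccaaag
Vim, chr17:81577011-81577310, plus strand: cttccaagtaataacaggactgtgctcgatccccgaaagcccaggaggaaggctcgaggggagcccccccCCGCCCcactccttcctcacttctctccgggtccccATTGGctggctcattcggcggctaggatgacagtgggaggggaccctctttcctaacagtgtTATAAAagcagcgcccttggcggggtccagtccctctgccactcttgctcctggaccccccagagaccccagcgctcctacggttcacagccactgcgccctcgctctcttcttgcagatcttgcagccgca
The Glul window held 3 CCAAT boxes and 2 GC boxes. The Fabp7 window held 3 CCAAT boxes and 1 GC box, all on the opposite strand. The Aldoc window held 1 GC box and no other match, and the Vim window held 1 match of each motif. Over 33469 RefSeq windows of this length, 37.5% held a CCAAT box, 33.1% a GC box and 14.2% a TATA box. A match describes the letters only, and these arrays measured no binding.

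The deposited intensities, which are linear values without a stated unit, had nearly equal trimmed means on the 5 arrays, from 150.19 to 150.22. Their medians ran from 49.3 on fetal alcohol array 1 to 56 on fetal alcohol array 2. The spiked control RNA Cre gave 2139 and 3132 after fetal alcohol, 2270 on the isocaloric diet, and 3774 and 4365 on control diet. It was thus lower on both fetal alcohol arrays than on both control diet arrays, and its bearing on the member values was not tested. As a sign of RNA quality, beta-actin gave 3' over 5' ratios of 1.18 and 1.26 after fetal alcohol, 1.12 on the isocaloric diet, and 1.32 and 1.34 on control diet. Those of Gapdh, 0.984 and 0.877, 0.931, and 0.878 and 0.895 in the same groups, overlapped between fetal alcohol and control diet. Over all tested probe sets, the SD of the log2 difference between the arrays of a group was 0.509 for fetal alcohol and 0.341 for control diet. The fetal alcohol arrays therefore differed more from each other than the control diet arrays did. They also differed more than any pair of arrays from different groups, where this SD ran from 0.424 to 0.465. Bulk RNA cannot tell fewer cells of a type from less RNA per cell.

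The first comparison, fetal alcohol against control diet, concerned transcript levels after exposure to alcohol before birth. Among the astrocyte and radial glia genes, Glul and Gja1 were lower on both fetal alcohol arrays than on both control diet arrays and S100b was higher, while Slc1a2, Slc1a3, Aqp4, Fabp7, Aldoc and Vim overlapped between the groups at their brightest probe set. None of the 9 genes passed the test. Of the 20 probe sets, 16 were bright enough to be tested and 0 had a limma adjusted p under 0.05, as was so for 0% of all 5244 tested probe sets. At an unadjusted p under 0.05, 1 of the 16 was lower, a Glul probe set, and 0 were higher, against 3.95% lower, 1.66% higher and 5.61% in either direction of all tested probe sets. The groups did not overlap at 7 of the 16, with 6 lower and 1 higher, against 34.5% of all tested probe sets (17.7% lower and 16.8% higher). By gene this was 3 of 9, against 34.4% of all tested genes (16.8% lower and 17.6% higher), so the share was that of the array as a whole. The median log2 difference of the 9 genes was -0.12, against 0.01 over all 3174 tested genes.

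**Figure D1:**
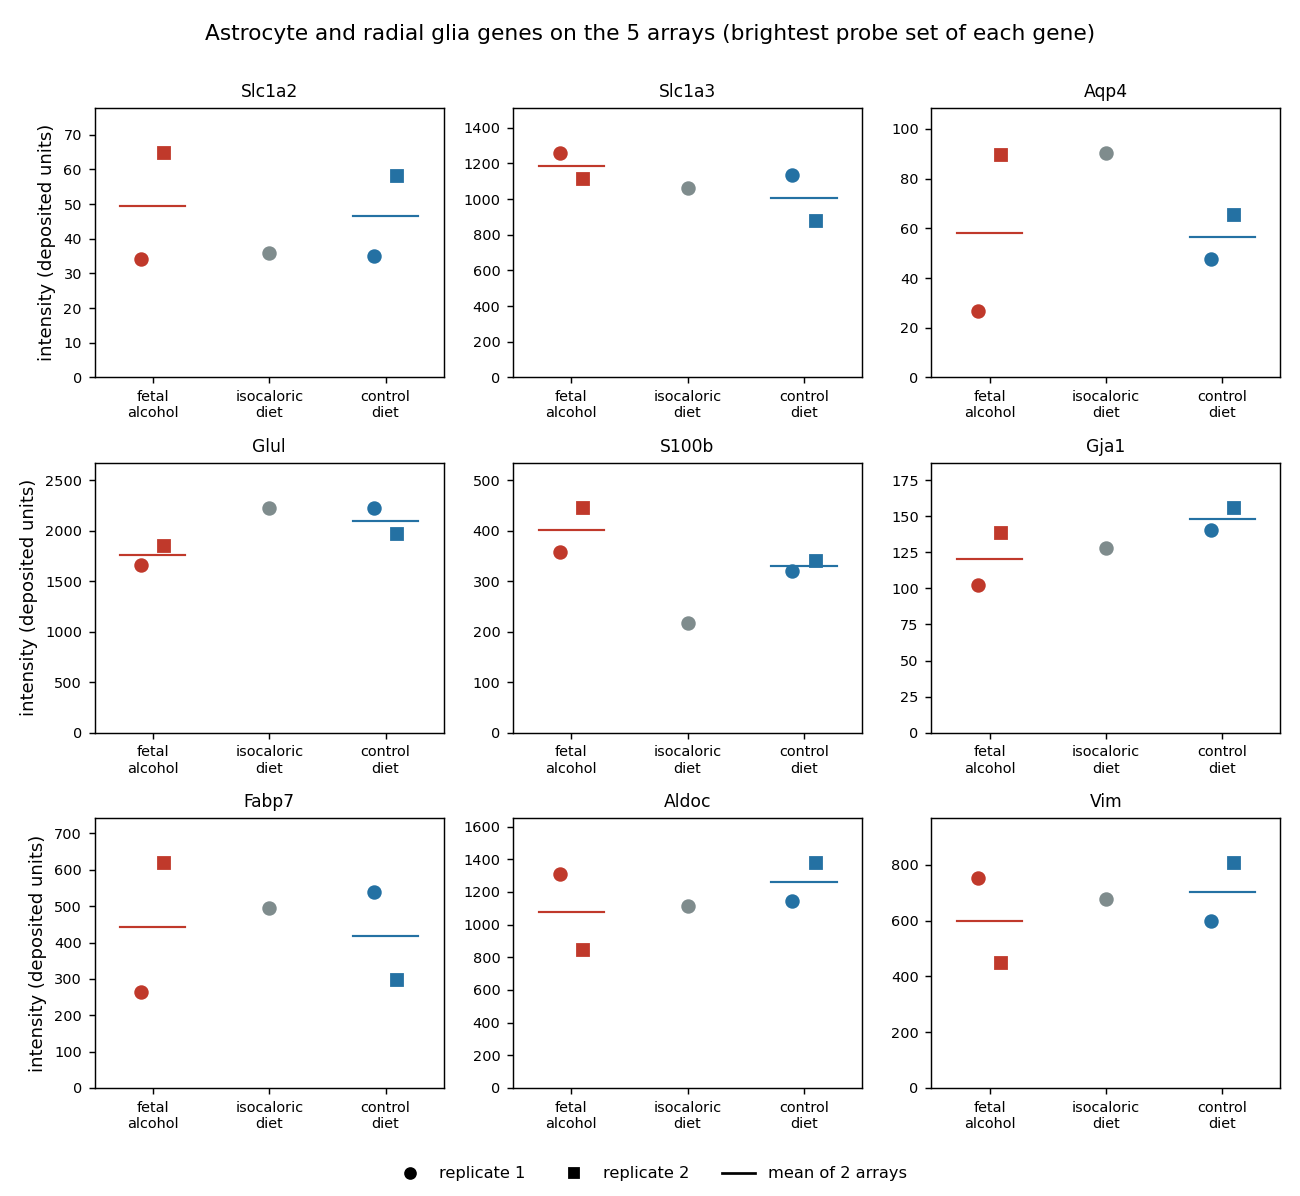
Intensity (vertical axes, deposited units, each from 0) of each gene at its brightest probe set, by group; circles and squares are single arrays and lines are means of 2 arrays. Both fetal alcohol arrays of Glul lie under, and both of S100b above, the other 3 arrays, and the fetal alcohol arrays of Aqp4, Fabp7, Slc1a2, Vim and Aldoc lie far apart.

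At all 4 Glul probe sets both fetal alcohol arrays lay under the isocaloric array and both control diet arrays. The brightest, M91652complete_seq_g_at, measured 1663 and 1850 on the fetal alcohol arrays, 2222 on the isocaloric one, and 2227 and 1964 on the control diet arrays. Its mean intensity was 1757 ± 133 after fetal alcohol and 2096 ± 186 on control diet (SD, n = 2 each). As shares of the control diet mean, the highest fetal alcohol array reached 88.3% and the lowest control diet array 93.7%. The log2 difference was -0.25 ± 0.19 (SE), with a 95% interval from -0.69 to 0.18 and a limma adjusted p of 0.965. M91652complete_seq_at, made from the same source sequence and so not independent of it, measured 1307 and 1450 after fetal alcohol, 1831.5 on the isocaloric diet, and 1595 and 1655 on control diet. The third, rc_AI232783_s_at, measured 1146 and 1204 after fetal alcohol, 1798 on the isocaloric diet, and 1405 and 1476 on control diet. Their log2 differences from control diet were -0.24 ± 0.19 and -0.29 ± 0.19, with adjusted p-values of 0.965 and 0.961. These 3 probe sets thus gave levels 1.18 to 1.22 times lower after fetal alcohol, each with an interval that includes 0 on the log2 scale.

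The dimmest Glul probe set, rc_AA852004_s_at, differed most. Its intensity was 287.4 and 496.5 after fetal alcohol, 855.5 on the isocaloric diet, and 658 and 739 on control diet. Fetal alcohol array 1 was the lowest by far, at 41.1% of the control diet mean against 71.1% for array 2. The log2 difference was -0.86 ± 0.29, a level 1.82 times lower, with a 95% interval from -1.53 to -0.20, an unadjusted p of 0.0168 and a limma adjusted p of 0.725. The difference was -0.48 when array 1 was left out and -1.25 when array 2 was. The isocaloric array was above both control diet arrays at 3 of the 4 Glul probe sets and between them at the brightest. Both fetal alcohol arrays lay under all 3 others at 4 of the 16 tested member probe sets, all of them Glul, against 8.30% of all tested probe sets, and at 1 of 9 member genes against 8.54% of all tested genes. The 4 probe sets read 1 gene in the same samples, so they are not separate observations.

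**Figure D2:**
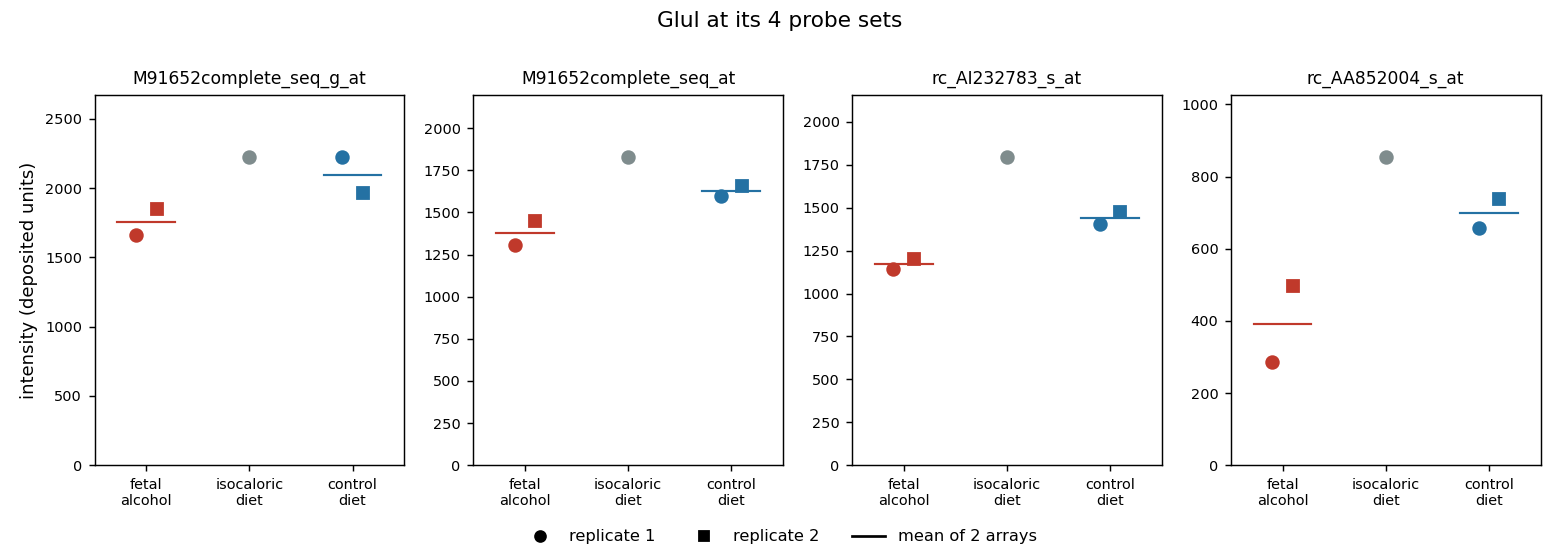
Glul intensity (vertical axes, deposited units, each from 0) at its 4 probe sets, by group; circles and squares are single arrays and lines are means of 2 arrays. At each probe set both fetal alcohol arrays lie under the other 3 arrays, and at rc_AA852004_s_at they are at 41.1% and 71.1% of the control diet mean.

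Most markers of the choroid plexus, which lies next to the hippocampus, were lower on the same arrays. Their summed intensity over 7 genes was 2323 and 834.1 after fetal alcohol, 7492 on the isocaloric diet, and 7316 and 7122 on control diet, with no marker listed at 0. Of 6 tested genes 5 had a negative difference from control diet, against 47.6% of all tested genes, 4 had both fetal alcohol arrays below both control diet arrays, against 16.8%, and 0 passed the test. Ttr, transthyretin, made up most of this sum on every array but fetal alcohol array 2, where it measured 19.3. Aqp1, a water channel of that epithelium, measured 25.3 and 35.1 after fetal alcohol, 107 on the isocaloric diet, and 79.5 and 86.5 on control diet. Prlr and Igfbp2 overlapped between fetal alcohol and control diet, with 832 and 572.5 against 669.7 and 908.8 for Igfbp2. The sum was lowest on fetal alcohol array 2, whereas Glul was lowest on fetal alcohol array 1. The part of such markers in the Glul values was not tested.

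S100b had the opposite order. Its brighter probe set, S53527mRNA_s_at, measured 357.4 and 445.5 on the fetal alcohol arrays, 216.9 on the isocaloric one, and 320.9 and 340.7 on the control diet arrays. The fetal alcohol arrays were the highest and the isocaloric array the lowest. The log2 difference from control diet was 0.26 ± 0.24, with an interval from -0.28 to 0.81 (limma adjusted p = 0.965). Leaving out fetal alcohol array 2 gave 0.11 and leaving out array 1 gave 0.42. The second S100b probe set, rc_AI146214_at, was too dim to be tested, with 22.1 and 42.3 after fetal alcohol, 20.6 on the isocaloric diet, and 23.7 and 21.0 on control diet. There only fetal alcohol array 2 stood above the other 4 arrays. S100b was the 1 member gene of 9, and its brighter probe set the 1 of 16, with both fetal alcohol arrays above all 3 others, against 8.70% of all tested genes and 8.45% of all tested probe sets.

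Gja1, connexin 43, measured 102.7 and 138.4 on the fetal alcohol arrays, 127.8 on the isocaloric one, and 140.6 and 155.9 on the control diet arrays. The groups were apart by a narrow margin, 138.4 against 140.6, and the isocaloric array lay between the fetal alcohol arrays. The log2 difference from control diet was -0.29 ± 0.24 (interval -0.85 to 0.27, limma adjusted p = 0.965). It was -0.49 from fetal alcohol array 1 alone and -0.09 from array 2 alone.

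The glutamate transporters gave no shared direction. Slc1a3 was bright at its main probe set, S59158_at, with 1261 and 1112 after fetal alcohol, 1060 on the isocaloric diet, and 1135 and 876.3 on control diet. Fetal alcohol array 2 lay between the control diet arrays. The log2 difference was 0.25 ± 0.22 (interval -0.27 to 0.76, limma adjusted p = 0.965). S75687_s_at gave 0.17 ± 0.27 and X63744_g_at 0.18 ± 0.24, and the dim X63744_at, not tested, gave 0.20, with 32.7 and 40.2 after fetal alcohol, 30.2 on the isocaloric diet, and 34.9 and 26.3 on control diet. All 4 probe sets of Slc1a3 were thus higher on average after fetal alcohol, and the groups overlapped at each of them. The control diet arrays themselves were ordered differently by these probe sets: array 1 was higher at S59158_at, X63744_g_at and X63744_at and lower at S75687_s_at.

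Slc1a2 was dim on this array. Its 4 probe sets averaged 45.7, 35.7, 13.1 and 3.85 over the 5 arrays, where an intensity of about 33.4 marks the filter, and only the first 2 were tested. The brightest, rc_AI638980_at, measured 34.2 and 64.9 after fetal alcohol, 35.9 on the isocaloric diet, and 35.2 and 58.2 on control diet. Both groups held a low and a high array, and the log2 difference was 0.05 ± 0.33 (interval -0.70 to 0.80). U15098_at measured 39.2 and 27.5 after fetal alcohol, 25.9 on the isocaloric diet, and 41.3 and 44.3 on control diet, a difference of -0.29 ± 0.26. The dim rc_AI044517_g_at, not tested, measured 24.4 and 10.2 after fetal alcohol, 12.6 on the isocaloric diet, and 8.55 and 9.61 on control diet, and rc_AI044517_at stayed between 2.32 and 5.08 on all 5 arrays. The order of the fetal alcohol arrays was opposite at both tested probe sets, and their differences from control diet had opposite signs.

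Aqp4 and Fabp7 differed more between the arrays of a group than between groups. Aqp4 measured 26.6 and 89.3 on the fetal alcohol arrays, 90.5 on the isocaloric one, and 47.6 and 65.4 on the control diet arrays. The fetal alcohol arrays lay on either side of the control diet arrays. Their log2 gap, array 2 minus array 1, was 1.42, and 1.35% of all tested genes had a wider one. The difference from control diet was -0.12 ± 0.43, with an interval from -1.10 to 0.85 (limma adjusted p = 0.997). It was 0.59 without fetal alcohol array 1 and -0.84 without array 2.

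Fabp7 measured 264.5 and 618.7 on the fetal alcohol arrays, 495.3 on the isocaloric one, and 540.2 and 296.2 on the control diet arrays. The fetal alcohol arrays were the lowest and the highest of the 5. The gap was 1.19 between the fetal alcohol arrays and -0.84 between the control diet arrays, array 2 minus array 1 in each, and 2.61% and 1.89% of all tested genes had wider ones. The log2 difference between groups was 0.02 ± 0.42 (interval -0.95 to 0.98, limma adjusted p = 0.997), so a change of up to about 1 on the log2 scale in either direction lies within the interval. It was 0.61 without fetal alcohol array 1 and -0.58 without array 2.

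Aldoc and Vim had their lowest value on fetal alcohol array 2, the array with the highest Fabp7. Aldoc at M63656_s_at measured 1307 and 845.1 after fetal alcohol, 1112 on the isocaloric diet, and 1142 and 1377 on control diet. Its second probe set, X06984cds_s_at, kept this order, with 1092 and 752.3, 935.7, and 938 and 1231 in the same groups. Fetal alcohol array 1 lay between the control diet arrays at both. The log2 differences were -0.25 ± 0.26 and -0.24 ± 0.26, each with a limma adjusted p of 0.965. Vim measured 751.8 and 447 after fetal alcohol, 678 on the isocaloric diet, and 599 and 806.8 on control diet, a difference of -0.26 ± 0.30 (interval -0.94 to 0.43, adjusted p = 0.965). Leaving out fetal alcohol array 2 gave 0.06 for Aldoc at M63656_s_at and 0.11 for Vim, and leaving out array 1 gave -0.56 and -0.63.

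Centred on their own means, Vim and Aldoc differed by a root mean square of 0.08 on the log2 scale over the 5 arrays. No background distance was taken for this pair. Both were higher on fetal alcohol array 1 than on array 2 and higher on control diet array 2 than on array 1. They were the 2 of 9 members with this order, 22.2% against 25.8% of all tested genes. The opposite order was found at 2 of 9 members, against 28.6% of all tested genes. Of 12 tested meninges and fibroblast markers 10 had this order, as did 10 of 20 other astrocyte and radial glia genes and 25.8% of all tested genes. Among the other marker lists the order was found at 3 of 6 choroid plexus, 2 of 5 microglia and macrophage, 2 of 7 oligodendrocyte, 1 of 5 endothelial, 0 of 2 ependymal and 0 of 9 neuron markers. The summed intensity of the 12 meninges and fibroblast markers was 6290 and 2753 after fetal alcohol, 4581 on the isocaloric diet, and 5339 and 7948 on control diet, with no marker listed at 0. Their part in the Vim and Aldoc values was not tested.

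**Figure D3:**
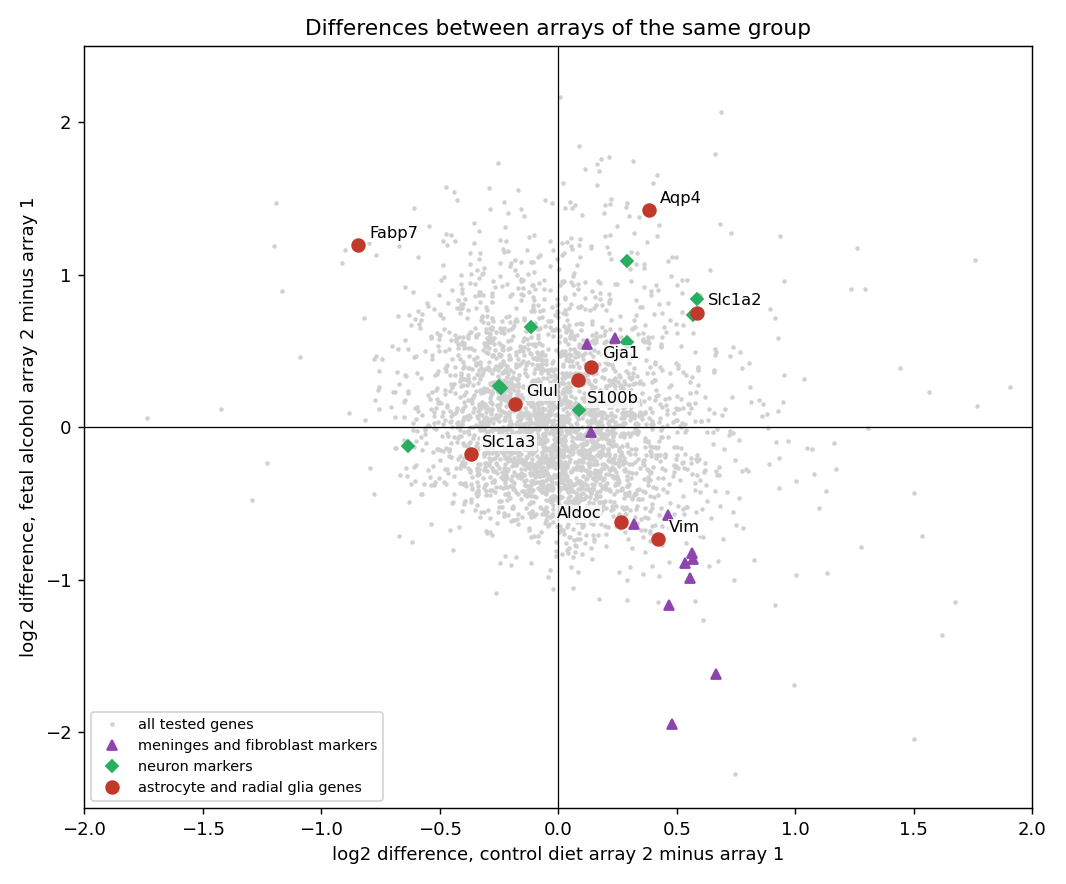
Log2 difference between the 2 control diet arrays (horizontal axis) and between the 2 fetal alcohol arrays (vertical axis) for 3174 tested genes in grey, of which 4 lie outside the plotted range, with 9 astrocyte and radial glia genes, 12 meninges and fibroblast markers and 9 neuron markers in colour. Vim and Aldoc lie in the lower right with most meninges markers, and Aqp4 and Fabp7 lie far up.

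For Aqp4 and Fabp7, the members with the widest log2 range over the 5 arrays at the brightest probe set of each gene, the genes with the most similar centred log2 values were looked up. Nearest to Aqp4 were Rcn2, Cnr1 and Mtpn, at root mean square distances of 0.06, 0.09 and 0.11, where the median gene lay at 0.57. Nearest to Fabp7 were Afdn, Gdi2 and Atp5pb, at 0.09, 0.10 and 0.13, where the median gene lay at 0.52. Rcn2, for example, measured 115.2 and 317.5 after fetal alcohol, 298.8 on the isocaloric diet, and 189.4 and 235.2 on control diet. With 5 arrays such likeness is a description only.

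Fetal alcohol against isocaloric diet set the 2 fetal alcohol arrays against the 1 feeding control array, assumed to vary like the others. On the same 2 fetal alcohol arrays as in the first comparison, Glul was lower at all 4 probe sets and S100b was higher. A low or high value on those arrays enters both comparisons, and none passed the test. Of the 16 tested probe sets 0 had a limma adjusted p under 0.05, as was so for 0% of all tested probe sets. At an unadjusted p under 0.05, 2 were lower and 1 was higher, against 1.54% lower, 2.67% higher and 4.21% in either direction of all tested probe sets. The groups did not overlap at 10 of the 16, with 6 lower and 4 higher, against 59.9% of all tested probe sets (28.4% lower and 31.5% higher). By gene this was 4 of 9, Glul and Aqp4 lower and S100b and Slc1a3 higher, against 59.9% of all tested genes (29.5% lower and 30.4% higher). The lower pair were Glul probe sets: rc_AA852004_s_at, with a log2 difference of -1.16 ± 0.35 (interval -1.97 to -0.34), and rc_AI232783_s_at, with -0.61 ± 0.24 (interval -1.16 to -0.06). The brightest Glul probe set gave -0.34 ± 0.23 and its partner -0.41 ± 0.24. S100b had 0.85 ± 0.29, with an interval from 0.18 to 1.52, a level 1.80 times higher. Each of these had a limma adjusted p of 0.998.

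Aqp4 was lower on both fetal alcohol arrays than on the isocaloric array by -0.73 ± 0.52 on average, but array 2 was almost level with it (89.3 against 90.5). Slc1a3 was higher at S59158_at (0.16 ± 0.28) and X63744_g_at (0.38 ± 0.29) and lower at S75687_s_at (-0.26 ± 0.33). Gja1 had -0.09 ± 0.30, Fabp7 -0.28 ± 0.52, Aldoc -0.08 ± 0.32 at its brighter probe set, Vim -0.22 ± 0.37 and Slc1a2 0.32 ± 0.40 at its brightest. The isocaloric array lay between the fetal alcohol arrays for each of these 5 genes at that probe set. The second tested Slc1a2 probe set, U15098_at, had 0.26 ± 0.31, with both fetal alcohol arrays above the isocaloric array.

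**Figure D4:**
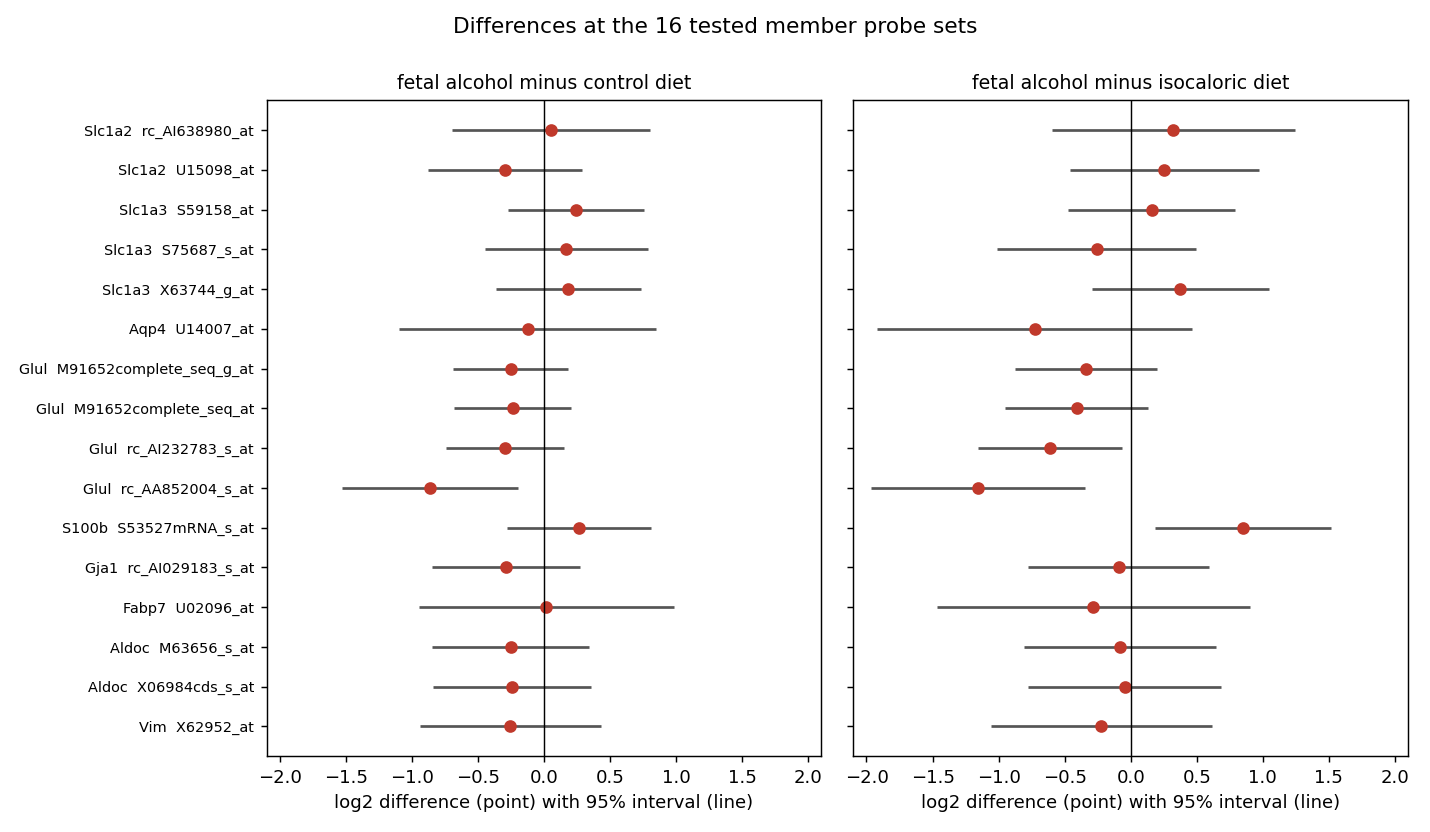
Log2 differences (points) with 95% intervals from limma (lines) for the 16 tested member probe sets, fetal alcohol minus control diet on the left and fetal alcohol minus isocaloric diet on the right; the horizontal axes are in log2 units. Against control diet the interval of Glul rc_AA852004_s_at lies below 0 and the other 15 include 0. Against the isocaloric diet those of 2 Glul probe sets lie below 0 and that of S100b above.

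Isocaloric against control diet concerned the feeding control itself. No member stood out: 0 of 16 probe sets had an unadjusted p under 0.05, against 6.81% of all tested probe sets (5.43% lower and 1.37% higher), and 0 had a limma adjusted p under 0.05, against 0%. The isocaloric array lay outside the range of the control diet arrays at 11 of 16 member probe sets, 6 lower and 5 higher, against 75.8% of all tested probe sets (37.5% lower and 38.3% higher). By gene this was 4 of 9, with S100b, Gja1 and Aldoc lower and Aqp4 higher, against 75.5% of all tested genes (35.0% lower and 40.5% higher). The largest differences were those of Aqp4 (0.60 ± 0.52), S100b (-0.58 ± 0.29) and the Slc1a2 probe set U15098_at (-0.55 ± 0.31), with limma adjusted p-values of 0.890, 0.799 and 0.849. The 4 Glul probe sets gave 0.09 to 0.32. Since the comparisons share their arrays, S100b being highest after fetal alcohol and lowest on the isocaloric diet enters all 3 of them.

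Other astrocyte and radial glia genes had mostly negative differences from control diet, and none passed. Of 43 listed genes 26 had a probe set and 20 were tested. Their median log2 difference was -0.17, with 15 of 20 negative and 0 past the threshold, against a median of 0.01 and 47.6% negative over all tested genes. At 6 the groups did not overlap with fetal alcohol lower, against 16.8% of tested genes, and at 1 with fetal alcohol higher, against 17.6%. Slc6a11, the GABA transporter GAT-3 of astrocytes, measured 73.0 and 127 after fetal alcohol, 144.5 on the isocaloric diet, and 163.9 and 154.2 on control diet, a difference of -0.66 ± 0.28 (limma adjusted p = 0.875). Clu, clusterin, a secreted chaperone, had -0.64 ± 0.27, Gstm1, a glutathione transferase, -0.45 ± 0.22, and Ncan, the proteoglycan neurocan, -0.44 ± 0.25. Against the isocaloric array the median of this list was -0.05, with 11 of 20 negative. Fetal alcohol array 2 was lower than array 1 at 15 of the 20 genes, with a median log2 gap of -0.25, whereas array 1 was the lower at all 4 Glul probe sets. Of the 12 meninges and fibroblast markers, 12 were negative against control diet and 10 were lower on fetal alcohol array 2 than on array 1, with a median gap of -0.85. Their part in the values of this list was not tested.

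Genes of glutamate uptake and the glutamine cycle, which include Slc1a2, Slc1a3 and Glul, differed from control diet by a median of -0.01. Of 22 listed genes 13 were tested, 7 were negative and 0 passed. Beside Slc6a11, the largest differences were those of Slc1a1, the neuronal glutamate transporter (0.43 ± 0.26), and Got1, an aspartate aminotransferase (0.31 ± 0.23). Glul had -0.25 ± 0.19 at its brightest probe set. In the same gene families, 24 of 40 listed relatives were tested, with a median of -0.04, 13 negative and 0 past the threshold. Among them Ina, a neuronal intermediate filament protein, had -0.74 ± 0.24, and Gja4, a connexin of vessel walls, -0.58 ± 0.23. Fabp3, a fatty acid binding protein of heart and neurons, had 0.58 ± 0.23, beside Aqp1 with -1.21 ± 0.24. Ina measured 372.5 on the isocaloric array, under both fetal alcohol arrays (478.7 and 545). Gja4 measured 71.4 there, between the fetal alcohol arrays (77.1 and 62.1). Both were thus also lower on the isocaloric array than on control diet. The isocaloric array lay between the groups for Fabp3 (182.4) and above both control diet arrays for Aqp1 (107.3). Against the isocaloric array, 18 of the 24 relatives were higher on average after fetal alcohol and 6 lower (median 0.23).

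Markers of other cell types differed from control diet as follows, with 0 genes past the threshold in any list. Neuron markers had a median of 0.01 over 9 tested genes, with Syn1, a synaptic vesicle protein, at -0.61 ± 0.27 and Nefl, a neurofilament, at 0.44 ± 0.27. Oligodendrocyte markers had -0.01 over 7, with Mog at 0.35 ± 0.37 and Gjb1 at -0.28 ± 0.28. Microglia and macrophage markers had -0.13 over 5, with C1qb, a complement protein, at -0.69 ± 0.35 and Ptprc at -0.18 ± 0.25. C1qb measured 353.6 on control diet array 2 and from 129.1 to 162 on the other arrays. Endothelial markers had -0.13 over 5, with the glucose transporter Slc2a1 at -0.52 ± 0.31 and Slco1a4 at -0.39 ± 0.28. Ependymal markers had 0.17 over 2, Rsph1 with 0.24 ± 0.23 and Cd24 with 0.10 ± 0.26. Foxj1 and Dnah7 of this list, too dim to be tested, went the other way, with -0.70 and -0.21. Foxj1 measured 28.4 and 19.1 after fetal alcohol, 33.4 on the isocaloric diet, and 49.35 and 40.5 on control diet. Choroid plexus markers had -1.07 over 6, with Ttr at -4.93 ± 1.35 at its brighter probe set and Sostdc1 at -1.14 ± 0.27. Meninges and fibroblast markers had -0.66 over 12, with Col3a1 at -1.14 ± 0.54 and Aldh1a2 at -0.86 ± 0.33. At 4 of these 12 both fetal alcohol arrays lay below both control diet arrays, against 16.8% of all tested genes. Col3a1 overlapped, with 304.5 and 71.3 after fetal alcohol against 289.6 and 408.4 on control diet.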

How the data were processed

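Total RNA of 5 hippocampus samples from rats labelled P5 was measured on 1 array each. The authors deposited linear intensities, 1 for each probe set on each array. No source used here names the software or the scaling. Because the 2% trimmed means differed by a ratio of 1.0002, the values were used as deposited.

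Intensities of 8740 probe sets (59 control probe sets left out) became log2(intensity + 10.6), the offset being their 20th percentile, so differences of dim probe sets are understated. Probe sets under the 40th percentile of the mean log2 value were not tested, leaving 5244, of which 16 of 20 belong to the members. All 5 arrays entered 1 fit of lmFit and eBayes, with a variance trend, from limma 3.58.1 under R 4.3.3. Tests were 2-sided and adjusted by Benjamini-Hochberg over all tested probe sets at 0.05, with 2 residual and 6.3 prior degrees of freedom. Precision is limited by how few arrays there are. The test was tried on simulated arrays with known changes and the same spread on every array. The fetal alcohol arrays here differed more from each other than the control diet arrays did. The trial therefore does not show how the test behaves on these data.

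Genes came from the platform annotation: 7006 probe sets had 1 symbol, 308 several and 1426 none, and only the first kind was named. The brightest probe set stood for a gene. All members are named whatever their values, and 2 to 4 genes of each other list with the largest differences from control diet. Members and lists were chosen with earlier results of these data known. Alternatives were other scalings, offsets and filters, no variance trend, leaving out each array and a replicate block. Replicate numbers only name arrays, and no pairing was used. No scan date was used here, so no batch was tested.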

Additional observations from a re-analysis of the deposited data

How the results depend on the processing

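No member probe set passed the threshold under any alternative run, in any of the 3 comparisons. Of 535 member values under alternatives 513 kept their sign, and 21 of the 22 that did not came from leaving out 1 array. Other filters, no variance trend and the replicate block leave a difference as it is. So does leaving out an array of a group not compared. The 513 therefore include values that could not change sign. The cause of the changes of sign was not tested. The 4 Glul probe sets stayed lower after fetal alcohol under every alternative in both comparisons that hold the group. Only the other scalings could have changed this, since both fetal alcohol arrays already lay under the other 3. At all 4, quantile normalization and equal medians, alternatives chosen after seeing the data, kept both fetal alcohol arrays under the other 3. Under the alternatives that keep every array, limma adjusted p-values of rc_AA852004_s_at against control diet ran from 0.581 to 0.829. With 1 array left out its log2 difference ran from -1.25 to -0.48. With equal medians 2 member probe sets, not 1, had both fetal alcohol arrays above the other 3.

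With 1 array left out, differences from control diet after fetal alcohol ran from -0.32 to 0.43 for Slc1a2 rc_AI638980_at, -0.11 to 0.44 for Slc1a3 S75687_s_at, -0.84 to 0.59 for Aqp4, -0.58 to 0.61 for Fabp7, -0.56 to 0.059 and -0.51 to 0.024 for Aldoc, and -0.63 to 0.11 for Vim. From the isocaloric diet they ran from -0.053 to 0.70 for Slc1a2 rc_AI638980_at, -0.29 to 0.11 for Gja1, -0.88 to 0.32 for Fabp7, -0.39 to 0.23 and -0.31 to 0.22 for Aldoc, and -0.59 to 0.15 for Vim. Isocaloric minus control diet ran from -0.56 to 0.023 for Slc1a2 rc_AI638980_at, -0.10 to 0.27 for Slc1a3 S59158_at, -0.0037 to 0.18 for the brightest Glul probe set, -0.12 to 0.72 for Fabp7 and -0.25 to 0.18 for Vim, which was 0.0255 with equal medians.

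Over all probe sets, limma's count past the threshold for fetal alcohol against control diet was 0, with 294 at an unadjusted p under 0.05; it became 1 with quantile normalization, 9 with equal medians, 1 with the offset at the 40th percentile and 8 with the replicate block, which takes the replicate number as a term. The numbers share no stated meaning, and the array differences of the 2 groups correlated at -0.113 across probe sets. For fetal alcohol against isocaloric diet, with 0 and 221, it became 3 with quantile normalization and 3 with equal medians. With 1 array left out these counts ran from 0 to 25 and from 0 to 12, and that of isocaloric against control diet from 0 to 13; without a fetal alcohol array the spread came from the control diet arrays, and the lone array was assumed to vary like them.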
